A study of Mus musculus with 15 samples.

Results

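The genes described here are the Myc, Mxd and Max network: the 3 Myc family genes Myc, Mycn and Mycl, their partner Max, and the Max-binding genes Mxd1, Mxd3, Mxd4, Mxi1, Mnt and Mga. They were taken as a list of 10 gene symbols. A count row was matched for 9 of the 10 among the 21889 genes of the gene count table, and Mxd4 was not analysed here. All 9 passed the filter on low counts, and the lowest count of any of them in any library was 358, for Myc in E15.5 replicate 2.

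Poly(A) RNA was sequenced from mouse cerebellum in 15 libraries, 3 in each of 5 groups. The first 4 groups were granule neuron precursors at embryonic stage E15.5 (genotype label Math1-GFP) and postnatal days 1, 7 and 14 (P1, P7 and P14, genotype label WT). The fifth was medulloblastoma cells of genotype label Ptch1 heterozygous (MB), for which the labels give no age. All cells were purified by Percoll fractionation. The E15.5 group differed from P1 in genotype label as well as in age, and MB differed from every other group in both genotype and tissue state. The labels do not say whether replicates came from separate animals or tumours, so p-values measure only the spread between these libraries. Granule neuron precursors are the dividing cells of the outer cerebellar layer that give rise to granule neurons, and mice with 1 mutant copy of Ptch1, the receptor that restrains Sonic hedgehog signalling, develop medulloblastoma from them.

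Myc family proteins bind DNA only as pairs with Max, at the E-box sequence CACGTG and its variants, where they raise transcription of genes for ribosome production, metabolism and growth. Mxd1, Mxd3, Mxi1, Mnt and Mga compete for Max and, in such pairs, recruit repressors to the same sites. Mycn is known as a target of Sonic hedgehog signalling in granule neuron precursors, where it drives division. Max also sits at the centre of a wider network in which Mlx, a relative of Max, pairs with Mlxip and Mlxipl.

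The sequences upstream of 3 members are shown because the genes were called higher in MB in every fit (Mycn and Mycl) or because the window holds the network's own binding motif (Mnt), and Myc has no entry among the windows. Each is the 250 bases before the RefSeq start of the gene in GRCm38.p6, read 5′ to 3′ on the gene's strand, with searched motifs in capitals. The Mycn window is chr12:12941837-12942086 on the minus strand, the Mycl window is chr4:122995681-122995930 on the plus strand, and the Mnt window is chr11:74830674-74830923 on the plus strand.
Mycn: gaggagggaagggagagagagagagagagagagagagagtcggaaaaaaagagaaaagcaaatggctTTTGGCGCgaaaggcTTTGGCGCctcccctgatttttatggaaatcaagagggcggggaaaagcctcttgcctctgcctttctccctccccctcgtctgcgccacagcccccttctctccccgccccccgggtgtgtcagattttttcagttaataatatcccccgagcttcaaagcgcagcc
Mycl: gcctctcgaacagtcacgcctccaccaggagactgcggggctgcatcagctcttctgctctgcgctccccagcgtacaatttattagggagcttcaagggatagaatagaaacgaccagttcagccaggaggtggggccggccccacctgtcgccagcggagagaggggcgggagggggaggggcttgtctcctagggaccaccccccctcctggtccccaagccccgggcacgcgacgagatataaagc
Mnt: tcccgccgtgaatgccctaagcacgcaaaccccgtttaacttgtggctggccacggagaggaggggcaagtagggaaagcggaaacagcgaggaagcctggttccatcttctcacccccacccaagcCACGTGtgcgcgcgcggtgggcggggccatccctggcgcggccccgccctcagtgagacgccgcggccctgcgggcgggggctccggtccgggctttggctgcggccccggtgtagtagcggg

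The motifs searched, on both strands, were the E-box CACGTG, the E2F forms TTTCCCGC and TTTGGCGC, and the Gli form GACCACCCA. None of these overlaps another. The Mycn window held TTTGGCGC at 2 places, 183 and 168 bases upstream of the start, and 0.417% of 32851 RefSeq promoter windows of this length held that motif. The Mnt window held CACGTG 123 bases upstream of the start, and so did the window of Mxd4, at 219 bases, against 6.02% of all windows. TTTCCCGC, in 0.895% of windows, and GACCACCCA, in 0.225%, matched in none of the members' windows searched. These matches describe the letters of the windows and were not compared with the measured levels.

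Each library held 12597472 to 43443132 counts in genes. The libraries fell into 2 counting sets by the gene Tsnax, whose gene count was under 1% of its transcript count in 6 libraries (E15.5 replicates 1 and 3, all of P7 and MB replicate 1) and 92.4% to 94.8% in the other 9. P7 therefore lay wholly in 1 set while P1 and P14 lay in the other, and age and set cannot be told apart in P7 against P1 or in P14 against P7. The members' own ratio of gene to transcript counts overlapped between the sets for all 9. MB replicate 1, E15.5 replicate 3 and P1 replicate 3 stood apart from their groups. Reads not uniquely aligned were 44.6% in MB replicate 1 and 42.2% in E15.5 replicate 3. In the other MB and E15.5 libraries they were 30.7% to 32.5%. P1 replicate 3 held 102 CPM (library-size scaled counts) of Gabra6, a gene of mature granule neurons, against 1.12 and 12.5 in the other P1 libraries and 161 to 202 at P14. The granule lineage marker Atoh1 was present in all groups, at 124 to 138 CPM at E15.5, 10.9 to 13.1 at P14 and 236 to 322 in MB. Of the 12 granule lineage markers, however, 2 were called higher and 8 lower in MB against P14 (median log2 fold change -0.99). Of all genes tested there, 22.9% were called higher and 27.2% lower. Against P7, 2 markers were higher and 4 lower (median -0.79), with 13.7% of all genes higher and 20.7% lower. Ptch1 was at 202 to 349 CPM in MB and 252 to 340 at P7, and the gene count does not separate its alleles.

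**Figure D1:**
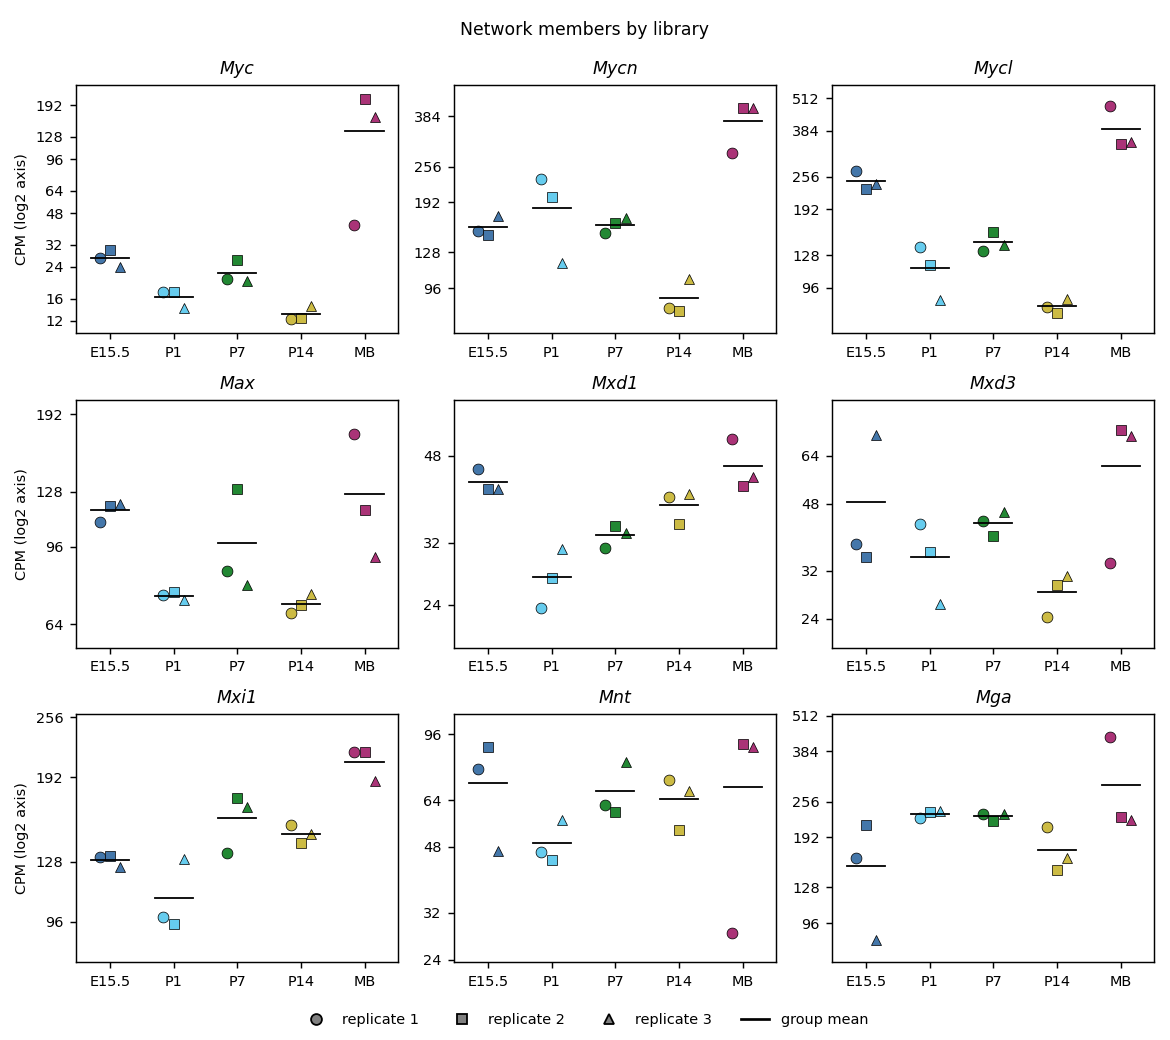
Level of each of the 9 measured members in every library, in CPM on a log2 axis whose range differs between panels, with groups along the horizontal axis, marker shape for the replicate number and a line at the group mean. The 3 MB libraries lie above all 12 precursor libraries for Myc, Mycn, Mycl and Mxi1, while MB replicate 1 lies apart from MB replicates 2 and 3 for Myc, Mnt, Mga, Max and Mxd3.

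Myc, the founding member of the family, was the lowest of the 3 family genes in every library, MB included. Among the members it had the largest fitted fold change in MB against P7 and against P14. For MB replicate 1 alone against P7, however, the change was larger for Mycl and Mga (both upward) and for Mnt (downward). Myc lies at chr15:61816946-61821905 (mm9, plus strand). Its level was 27.0, 29.9 and 24.1 CPM at E15.5, 17.3, 17.4 and 14.1 at P1, 20.6, 26.3 and 20.1 at P7, and 12.3, 12.5 and 14.5 at P14. In MB it was 41.3, 207 and 165 CPM. All MB libraries were above all precursor libraries, and MB replicate 1 was far below the other MB libraries. Myc rose 6.17-fold in MB against P7 (log2 fold change 2.63, SE 0.40, adjusted p = 1.14e-04, edgeR) and 10.5-fold against P14 (log2 3.39, SE 0.41, adjusted p = 9.38e-06, edgeR). In bulk RNA, fewer cells expressing a gene and less RNA per cell cannot be told apart. Within the counting sets, MB replicate 1 alone was 0.88 above P7 on the log2 scale (edgeR adjusted p = 0.00609, with the lone library assumed to vary like the other groups), and MB replicates 2 and 3 were 3.83 above P14 (adjusted p = 3e-08). Without MB replicate 1, the log2 fold change against P7 was 3.06. P1 against E15.5 gave -0.73 (SE 0.38, edgeR adjusted p = 0.13), and -0.88 with the call made within 1 counting set, against E15.5 replicate 2 alone (adjusted p = 0.00966), and the same -0.73 was called without MB replicate 1 (adjusted p = 0.00191). P14 against P7, with the P14 libraries wholly lower, gave -0.77 (SE 0.38, edgeR adjusted p = 0.2), called without MB replicate 1 (adjusted p = 0.00878). In the 25 alternatives Myc was called in 5 for the first comparison, and in 3 of 24 for the second.

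Mycn, the family member tied to Sonic hedgehog signalling in these cells, was called lower at P14 and higher in MB. It lies at chr12:12942902-12948720 (mm9, minus strand), and its upstream window with the pair of TTTGGCGC motifs is printed above. Its level was 153, 147 and 172 CPM at E15.5, 232, 200 and 118 at P1, 150, 163 and 169 at P7, 82.1, 80.1 and 104 at P14, and 286, 412 and 412 in MB. The P1 libraries ran from below the E15.5 and P7 libraries to above them, and the P14 libraries were below all others. Mycn fell 2.07-fold from P1 to P14 (log2 fold change -1.05, SE 0.23, edgeR adjusted p = 0.0143) and 1.81-fold from P7 to P14 (log2 -0.85, SE 0.22, adjusted p = 0.0284). These 2 comparisons share the P14 libraries. The first lies inside 1 counting set, and the call was lost without P1 replicate 1 or 2 or P14 replicate 1 or 2, with log2 fold changes of -1.28 to -0.84 over all single libraries left out. The second was lost without P7 replicate 2 or 3 or any P14 library (-0.98 to -0.79). In MB, Mycn rose 2.31-fold against P7 (log2 1.21, SE 0.23, adjusted p = 6.78e-04, edgeR) and 4.18-fold against P14 (log2 2.06, SE 0.23, adjusted p = 4.79e-06, edgeR). Within the counting sets the values were 0.83 for MB replicate 1 against P7 (adjusted p = 0.0326) and 2.22 for MB replicates 2 and 3 against P14 (adjusted p = 6.93e-06, edgeR).

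Mycl, a family member first found in lung cancer, was highest among precursors at E15.5 and higher still in MB. It lies at chr4:122673187-122679728 (mm9, plus strand). Its level was 270, 231 and 240 CPM at E15.5, 137, 118 and 86.4 at P1, 132, 157 and 140 at P7, 81.1, 77.0 and 87.0 at P14, and 480, 343 and 348 in MB. The E15.5 libraries were above every postnatal precursor library, and the MB libraries were above E15.5. Mycl fell 2.17-fold from E15.5 to P1 (log2 fold change -1.12, SE 0.19, edgeR adjusted p = 2.38e-04), and within 1 counting set the value was -1.02 (adjusted p = 0.00395). It fell 1.75-fold from P7 to P14 (log2 -0.81, SE 0.19, edgeR adjusted p = 0.0178), a call that was lost without P7 replicate 2 or any P14 library (-0.89 to -0.74). P14 against P1 gave -0.48 (SE 0.19, edgeR adjusted p = 0.113), and -0.64 with the call made (adjusted p = 0.0269) when P1 replicate 3 was left out. In MB, Mycl rose 2.73-fold against P7 (log2 1.45, SE 0.19, adjusted p = 3.03e-05, edgeR) and 4.78-fold against P14 (log2 2.26, SE 0.19, adjusted p = 3.95e-07, edgeR). Within the counting sets these were 1.74 and 2.08 (adjusted p = 6.62e-05 and 1.8e-06).

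Across the 25 alternative fits tried, Myc, Mycn and Mycl were called higher in MB in every fit, against P7 and against P14. The levels of the genes can be set beside each other only per length. In CPM per kilobase of exon, the sum of the 3 was 304 ± 42.6 in MB and 61.1 ± 6.69 at P14, with 138 ± 6.26, 107 ± 29.8 and 109 ± 7.14 for E15.5, P1 and P7 (mean ± SD, n = 3 each). Mycn made up 40.1% to 45.9% of that sum at E15.5, 59.7% to 65.9% at P1, 52.8% to 57.4% at P7 and P14, and 41.8% to 48.2% in MB. Mycl was the largest part at E15.5 in each library, at 46.8% to 51.8%, and was 28.1% to 38.1% in the later precursor libraries. In MB replicates 1, 2 and 3 Mycl was 51.3%, 27.9% and 29.8%, and so was the largest part in MB replicate 1 as well. Myc was 5.63% to 9.77% of the sum in the precursor libraries and 6.89%, 26.3% and 22.0% in MB replicates 1, 2 and 3. MB replicate 1 was thus inside the precursor range for the share of Myc and outside it for the summed level.

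**Figure D2:**
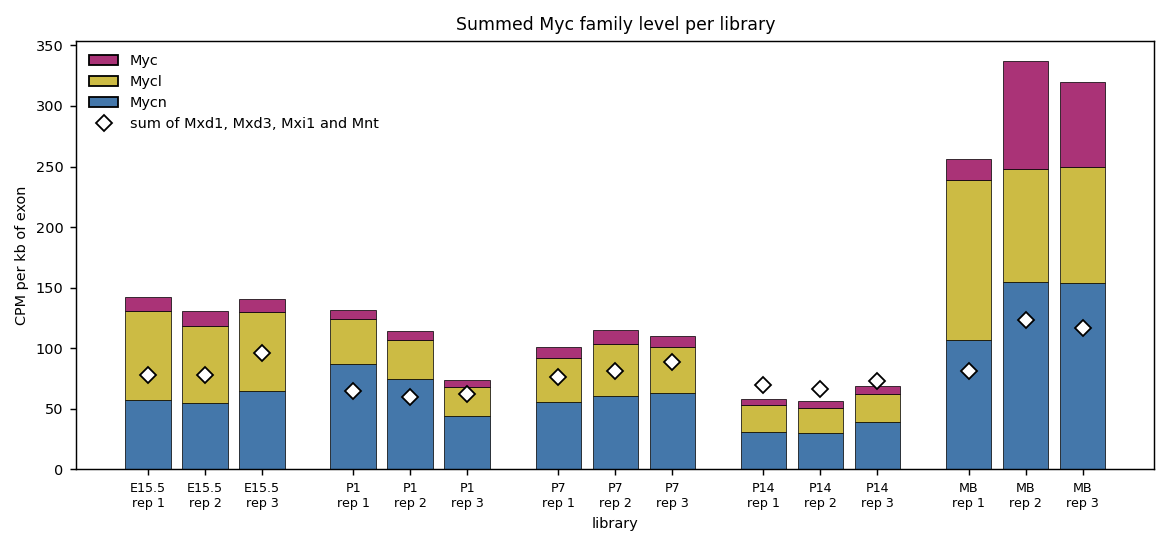
Summed level of Mycn, Mycl and Myc in each library, stacked, in CPM per kilobase of exon from 0, with diamonds for the sum of Mxd1, Mxd3, Mxi1 and Mnt. The stack reaches 256 to 337 in MB and 56.4 to 68.8 at P14, where the diamonds lie above the stacks.

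Max, the obligate partner of the family, spread more in MB and P7 than in the other groups. It lies at chr12:78038256-78063235 (mm9, minus strand). Its level was 109, 119 and 120 CPM at E15.5, 74.5, 75.6 and 72.7 at P1, 84.7, 130 and 78.6 at P7, 67.9, 70.9 and 75.0 at P14, and 173, 116 and 91.2 in MB. The E15.5 libraries lay above the P1 and P14 libraries, whereas MB overlapped both E15.5 and P7. Max fell from E15.5 to P1 (log2 fold change -0.64, SE 0.22, edgeR adjusted p = 0.0262), a call lost within 1 counting set (-0.67, adjusted p = 0.0532) and without P1 replicate 3 (-0.63, adjusted p = 0.0653). It was kept in 19 of 25 alternatives and was also lost with upper-quartile scaling and without E15.5 replicate 2 or P1 replicate 1 or 2. It rose in MB against P14 (log2 0.83, SE 0.22, edgeR adjusted p = 0.00561), by 0.54 for MB replicates 2 and 3 alone (adjusted p = 0.0336). Against P7 the value was 0.37 (SE 0.22, edgeR adjusted p = 0.209), with 0.81 for MB replicate 1 against P7 (adjusted p = 0.017) and 0.085 without MB replicate 1. The ratio of the summed Myc family to Max, per kilobase, was 2.21 to 2.62 at E15.5, 2.03 to 3.55 at P1, 1.78 to 2.81 at P7 and 1.60 to 1.84 at P14. It was 2.98, 5.82 and 7.03 in MB replicates 1, 2 and 3, so that MB replicate 1 lay below 2 of the P1 libraries.

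Among the genes whose products repress with Max, Mxd1 was at its lowest at P1. Mxd1 lies at chr6:86597038-86619153 (mm9, minus strand), and its product is known from differentiating cells that leave the cycle. Its level was 45.1, 41.0 and 41.1 CPM at E15.5, 23.6, 27.2 and 31.0 at P1, 31.2, 34.7 and 33.4 at P7, 39.6, 34.9 and 40.2 at P14, and 51.9, 41.6 and 43.4 in MB. The P1, P7, P14 and E15.5 groups followed each other in rising order with no overlap between neighbours, and MB overlapped E15.5. Mxd1 fell from E15.5 to P1 (log2 fold change -0.64, SE 0.16, edgeR adjusted p = 0.00425; within 1 counting set -0.59, adjusted p = 0.0352). P14 against P1 gave 0.49 (SE 0.16, edgeR adjusted p = 0.0656), with the call made when spread was estimated with the sets as separate groups (0.49, adjusted p = 0.0305) and without P1 replicate 3 (0.59, adjusted p = 0.0313). Mxd1 rose in MB against P7 (log2 0.46, SE 0.16, edgeR adjusted p = 0.0323), but the value was 0.36 and no longer called without MB replicate 1 (adjusted p = 0.0767). The call was kept in 16 of 25 alternatives and was also lost with upper-quartile scaling, no low-count filter, the replicate block and the compared groups only, and without any P7 library or P14 replicate 3. Against P14 it was 0.26 (SE 0.16, edgeR adjusted p = 0.187).

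Mxd3 differs from its relatives in that its product is known from cells in division. It lies at chr13:55426529-55431119 (mm9, minus strand), where 104 bases of its exons overlap Prelid1 on the other strand. The libraries do not mark strand, and the gene count of Mxd3 was 54.3% to 78.5% of its transcript count, so its level is uncertain. It was 37.7, 34.7 and 72.6 CPM at E15.5, 42.4, 35.9 and 26.2 at P1, 43.3, 39.4 and 45.5 at P7, 24.2, 29.4 and 31.1 at P14, and 33.6, 74.7 and 72.1 in MB. E15.5 replicate 3 stood with MB replicates 2 and 3, and MB replicate 1 stood with the postnatal libraries. Mxd3 rose in MB against P14 (log2 fold change 1.09, SE 0.31, edgeR adjusted p = 0.0092), by 1.38 for MB replicates 2 and 3 alone (adjusted p = 5.07e-04, edgeR). Against P7 it was 0.49 (SE 0.31, edgeR adjusted p = 0.245), and within the counting set MB replicate 1 was 0.36 below P7, a log2 fold change of -0.36 (adjusted p = 0.411), while without MB replicate 1 the value was 0.78 with the call made (adjusted p = 0.0366).

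Mxi1 was the repressor gene with no overlap between MB and any precursor group. It lies at chr19:53384996-53450300 (mm9, plus strand), and 194 of its exon bases overlap Gm10197 on the other strand. Its level was 131, 132 and 125 CPM at E15.5, 98.2, 94.9 and 130 at P1, 133, 174 and 166 at P7, 153, 140 and 147 at P14, and 216, 216 and 188 in MB. P1 replicate 3 was at the E15.5 level, and the other 2 P1 libraries were below all others. Mxi1 rose in MB against P14 (log2 fold change 0.50, SE 0.16, edgeR adjusted p = 0.0157; 0.47 for MB replicates 2 and 3 alone, adjusted p = 0.0348), a call lost with upper-quartile scaling and without P14 replicate 2, and against P7 it gave 0.39 (SE 0.16, edgeR adjusted p = 0.0675). P7 against P1 gave 0.55 (SE 0.16, edgeR adjusted p = 0.0663), and 0.71 with the call made without P1 replicate 3 (adjusted p = 0.0238). Mxi1 has transcripts from alternative starts that share most exons. The transcript with the most upstream start held more counts than the one with the most downstream start, by 6.20% to 9.62% at E15.5, 20.1% to 22.4% at P1, 8.12% to 19.1% at P7, 22.5% to 24.7% at P14 and 2.99% to 16.1% in MB. This margin is a net difference, since the other Mxi1 transcripts hold exon bases that the most upstream one lacks. By counting set, it was 2.99% to 19.1% in the 6 libraries of 1 set and 9.62% to 24.7% in the other 9. These ranges overlap, and the sets differ in the groups they hold. Within the second set the margin was 9.62% in E15.5 replicate 2 and 14.9% and 16.1% in MB replicates 2 and 3. There it was 20.1% to 22.4% at P1 and 22.5% to 24.7% at P14. The part of the counting set was not tested.

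Mnt and Mga, the large and widely expressed members, showed their widest spread within MB and E15.5. Mnt lies at chr11:74644422-74659227 (mm9, plus strand), with the CACGTG motif upstream printed above. Its level was 77.4, 88.8 and 46.8 CPM at E15.5, 46.4, 44.2 and 56.8 at P1, 62.0, 59.6 and 80.9 at P7, 72.5, 53.2 and 67.6 at P14, and 28.3, 90.5 and 88.8 in MB. MB held both the lowest and the highest library of all, and Mnt passed the test in none of the 6 group comparisons (edgeR adjusted p of 0.22 to 0.951). Its log2 fold change was 0.036 (SE 0.34) in MB against P7, -1.26 for MB replicate 1 alone (adjusted p = 0.00608) and 0.41 without that library. P1 against E15.5 replicate 2 alone gave -0.85 for Mnt within 1 counting set (edgeR adjusted p = 0.0323). Mga, which also holds a T-box DNA-binding domain, lies at chr2:119722964-119795317 (mm9, plus strand). Its level was 162, 211 and 83.9 CPM at E15.5, 224, 236 and 237 at P1, 231, 220 and 232 at P7, 209, 147 and 163 at P14, and 432, 226 and 220 in MB. MB replicate 1 was the highest library and E15.5 replicate 3 the lowest. Mga rose in MB against P14 (log2 fold change 0.76, SE 0.30, edgeR adjusted p = 0.046), a call lost without MB replicate 1 (0.37, adjusted p = 0.282) and kept in 12 of 25 alternatives. It was also lost with upper-quartile scaling, with the compared groups only, within the counting set, and without E15.5 replicate 1, any P1 library, P7 replicate 2 or 3 or P14 replicate 2 or 3. Against P7 it was 0.36 (SE 0.30, edgeR adjusted p = 0.382), with 0.92 for MB replicate 1 alone and -0.031 without that library.

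The summed level of Mxd1, Mxd3, Mxi1 and Mnt in CPM per kilobase moved less than that of the Myc family. It was 107 ± 22.7 in MB and 69.6 ± 3.36 at P14, with 84.0 ± 10.4, 62.0 ± 2.56 and 82.1 ± 6.14 for E15.5, P1 and P7 (mean ± SD, n = 3 each). Mxd3, whose level is uncertain as stated above, contributed means of 45.3 in MB and 36.5 at E15.5. Mga was not part of the sum. The ratio of the Myc family sum to this sum was 1.46 to 1.82 at E15.5, 1.19 to 2.04 at P1, 1.24 to 1.42 at P7, 0.834 to 0.944 at P14 and 2.73 to 3.16 in MB. Every MB library was above, and every P14 library below, all other libraries in this ratio. It is a ratio of RNA levels summed over genes of unlike length and says nothing of protein pairs.

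**Figure D3:**
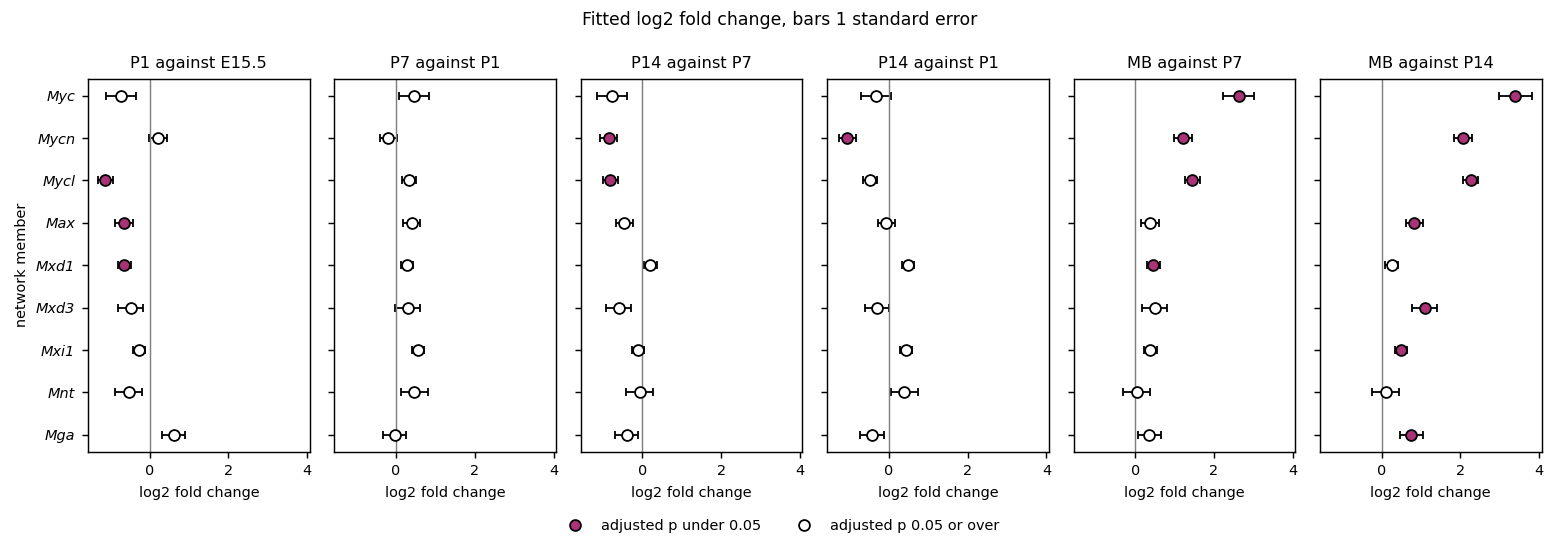
Fitted log2 fold change of each member, with bars of 1 standard error, in the 6 group comparisons, on 1 shared axis. Filled points passed an adjusted p of 0.05: 4 members, all higher, in MB against P7, 7, all higher, in MB against P14, and 0 to 3, all lower, between ages.

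In edgeR's test, the members called in MB were all higher, and those called between ages were all lower. In P1 against E15.5, 3 of 9 were called, all lower, against 46.3% of the 15259 genes tested (25.4% higher, 20.9% lower). Mycl, Max, Mxd1 and Myc lay wholly below E15.5 in P1 and Mga wholly above, where 27.3% and 30.5% of all genes did so. The median log2 fold change of the 9 was -0.53, and that of all genes was 0.031. In P7 against P1, edgeR called 0 of 9 against 3.15% of all genes (1.4% higher, 1.74% lower), with 1 member, Mxi1, at an unadjusted p under 0.05, and DESeq2 called 1, also Mxi1. The 480 genes called became 9 without P1 replicate 2, 294 without P1 replicate 1, 106, 21 and 156 without P7 replicates 1, 2 and 3, 229, 237 and 212 without P14 replicates 1, 2 and 3, and 888, 809 and 1293 without P1 replicate 3, E15.5 replicate 3 and MB replicate 1. Libraries did not overlap for 5 members, all higher at P7, where 14.1% of all genes were wholly higher and 14.7% wholly lower, and the medians were 0.33 and -0.014.

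In P14 against P7, 2 of 9 were called, both lower, against 10.3% of all genes (5.81% higher, 4.51% lower). These shares rest on single libraries: the 1574 genes called became 125 without P14 replicate 2, 158 without P7 replicate 2, 433 and 443 without P14 replicates 1 and 3, and 2837 without MB replicate 1. Libraries were wholly lower for 6 members and wholly higher for Mxd1, against 21.4% and 24.9% of all genes, and the medians were -0.45 and -0.00499. In P14 against P1, 1 of 9 was called, lower, against 8.94% of all genes (3.63% higher, 5.31% lower). The 554 genes called higher and 810 lower became 2 and 162 without P1 replicate 1, 5 and 192 without P1 replicate 2, 46 and 248, 9 and 145, and 9 and 206 without P14 replicates 1, 2 and 3, 1479 and 1235 without P1 replicate 3, and 1397 and 1407 without MB replicate 1. Mycn and Mga were wholly lower and Mxd1 and Mxi1 wholly higher, against 24.9% and 26.5% of all genes, with medians of -0.30 and 0.00524. In a joint test over the 4 ages, 5 of 9 passed (Mycl, Mycn, Mxd1, Max and Mxi1) against 55.7% of all genes, a share near the background. Max and Mxi1 passed it in 15 of 24 alternatives each.

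In MB against P7, 4 of 9 were called, all higher (Myc, Mycl, Mycn and Mxd1), against 34.5% of all genes (13.7% higher, 20.7% lower). Libraries were wholly higher for 5 members, against 17.7% of all genes, and wholly lower for 0, against 23.9%. In MB against P14, 7 of 9 were called, all higher, against 50% of all genes (22.9% higher, 27.2% lower). Libraries were wholly higher for 8 members, with Mnt the exception, against 28.7% of all genes wholly higher and 32.7% wholly lower. The median log2 fold change of the 9 was 0.46 against P7 and 0.83 against P14, where that of all genes was 0.019 and 0.012. The 2 comparisons share the MB libraries.

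Markers of other cells and of division moved with these comparisons. Over 11 measured proliferation markers, such as Mki67 and Mcm2, 7 rose in MB against P7 and 11 against P14 (median log2 fold changes 0.70 and 1.52). Of all genes, 13.7% rose and 20.7% fell in MB against P7, and 22.9% rose and 27.2% fell against P14. The summed level of the proliferation markers was 4309 to 5968 CPM in MB, 3142 to 4364 at P7 and 1394 to 1686 at P14. It was 2306 to 3602 at P1 and 1862 to 2156 at E15.5. Of 10 oligodendrocyte markers, 7 fell in MB against P14 and 2 rose, with sums of 680 to 974 CPM in MB, 6669 to 7201 at P14, 1089 to 2182 at P7, 642 to 4300 at P1 and 96.5 to 121 at E15.5. All 8 endothelial markers fell in MB against P14, with sums of 28.1 to 42.5 and 813 to 848 CPM. Of 10 markers of microglia and macrophages, however, 5 rose and 0 fell in MB against P7, and 4 rose and 1 fell against P14. Their sum was 453, 192 and 161 CPM in MB replicates 1, 2 and 3, 56.2 to 153 at P7 and 152 to 214 at P14. From E15.5 to P1, where Mycl, Max and Mxd1 fell, markers of several other cell types rose. These were all 9 astroglial, all 10 oligodendrocyte, all 8 endothelial and all 8 pericyte and fibroblast markers. So did 9 of 10 microglial and 6 of 7 choroid plexus markers, with median log2 fold changes of 2.65 to 5.56 over all these lists. Of 8 Purkinje cell markers, however, 2 rose and 3 fell (median -0.23). Of 7 GABAergic interneuron markers, 1 rose and 5 fell (median -1.21). In this comparison of P1 with E15.5, 25.4% of all genes rose and 20.9% fell. The astroglial sum was 334 to 503 CPM at E15.5 and 2918 to 4551 at P1, and the endothelial sum was 19.1 to 42.4 and 425 to 657. The choroid plexus sum was 409, 10545 and 4008 CPM in the P1 libraries, 5214 to 8622 at P14 and 55.4 to 280 in MB. Among the lists in this paragraph, only Skor2, a Purkinje cell marker, was at 0 in all libraries of a group, which was MB. The part of these markers in the members' differences was not tested.

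In the Mlx branch, 1 of the 3 genes was called in MB, against 34.5% (P7) and 50% (P14) of all genes. Mlxipl, the carbohydrate response factor also called ChREBP, fell in MB against P7 (log2 fold change -4.86, SE 0.44, adjusted p = 8.86e-07, edgeR) and against P14 (-4.76, SE 0.44, adjusted p = 7.01e-07, edgeR), from 2.61 ± 0.39 and 2.44 ± 0.55 CPM to 0.0805 ± 0.0411 (SD, n = 3). Only 8 counts of it were found over the 3 MB libraries, against 250 at P7 and 228 at P14. It rose from E15.5 to P1 (log2 1.85, SE 0.36, edgeR adjusted p = 7.86e-04). Mlx, the partner itself, fell from 45.4 ± 17.6 CPM at E15.5 to 22.6 ± 0.962 at P1 (log2 -1.01, SE 0.24, edgeR adjusted p = 0.00277) and was at 25.6 ± 5.08 CPM in MB. Mlxip was at 92.2 to 113 CPM as group means and was called in none of the 6 comparisons (edgeR adjusted p of 0.396 to 0.973).

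Of 20 cofactors and regulators of Myc listed, 19 were tested. In MB against P7, 7 were called higher and 1 lower, with a median log2 fold change of 0.29, where 13.7% of all genes were higher and 20.7% lower. Against P14, 10 were higher and 1 lower, with a median of 0.73, where all genes gave 22.9% and 27.2%. Pim1, a kinase that stabilises Myc, rose from 38.3 ± 7.01 CPM at P7 to 152 ± 55.3 in MB (log2 1.99, SE 0.26, edgeR adjusted p = 3.06e-05). The helicase genes Ruvbl1 and Ruvbl2, whose products bind Myc in chromatin complexes, rose by 1.16 (SE 0.21, edgeR adjusted p = 4.48e-04) and 0.81 (SE 0.25, adjusted p = 0.0192). Fbxw7, the ubiquitin ligase subunit that marks Myc and Mycn protein for breakdown, fell from 76.1 ± 7.49 to 51.1 ± 5.16 CPM (log2 -0.58, SE 0.17, edgeR adjusted p = 0.0164). From E15.5 to P1, 1 rose and 6 fell, where 25.4% of all genes rose and 20.9% fell. Cip2a, an inhibitor of a Myc phosphatase, rose by 1.11, and the Myc partner Zbtb17 (Miz-1) and the acetyltransferase gene Kat5 fell (log2 -1.16 and -1.15). In P14 against P1, inside 1 counting set, 2 fell, against 5.31% of all genes: Skp2, a ubiquitin ligase subunit that acts on Myc (log2 -1.23, SE 0.17, edgeR adjusted p = 0.00135), and Cip2a (-0.91, SE 0.24, adjusted p = 0.0345).

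Of 30 listed genes that Myc proteins are known to activate, mostly genes of ribosome production, 29 were tested. In MB against P7, 17 were called higher and 1 lower, with a median log2 fold change of 0.63 against 0.019 for all genes, of which 13.7% were higher and 20.7% lower. Within the counting set, MB replicate 1 against P7 gave a median of 0.42. Against P14, 24 were higher and 1 lower (all genes 22.9% and 27.2%), with a median of 1.07, and MB replicates 2 and 3 alone gave 1.16. The summed level was 4770 to 5820 CPM in MB, 3534 to 3708 at P7, 2579 to 2712 at P14, 3196 to 4422 at P1 and 4393 to 5978 at E15.5, so that MB and E15.5 overlapped. Polr1b, a subunit of RNA polymerase I, rose from 33.4 ± 2.46 CPM at P7 to 120 ± 14.2 in MB (log2 1.85, SE 0.17, adjusted p = 9.31e-07, edgeR). Nop2, a ribosomal RNA methyltransferase, rose from 42.1 ± 1.99 to 110 ± 18.9 CPM (log2 1.38, SE 0.17, edgeR adjusted p = 1.45e-05), and Shmt2, a mitochondrial enzyme of serine metabolism, from 143 ± 5.43 to 349 ± 221 (log2 1.29, SE 0.37, edgeR adjusted p = 0.0137). Tert, the telomerase catalytic subunit, fell from 5.57 ± 1.69 to 0.755 ± 0.441 CPM (log2 -2.84, SE 0.43, edgeR adjusted p = 1.21e-04).

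**Figure D4:**
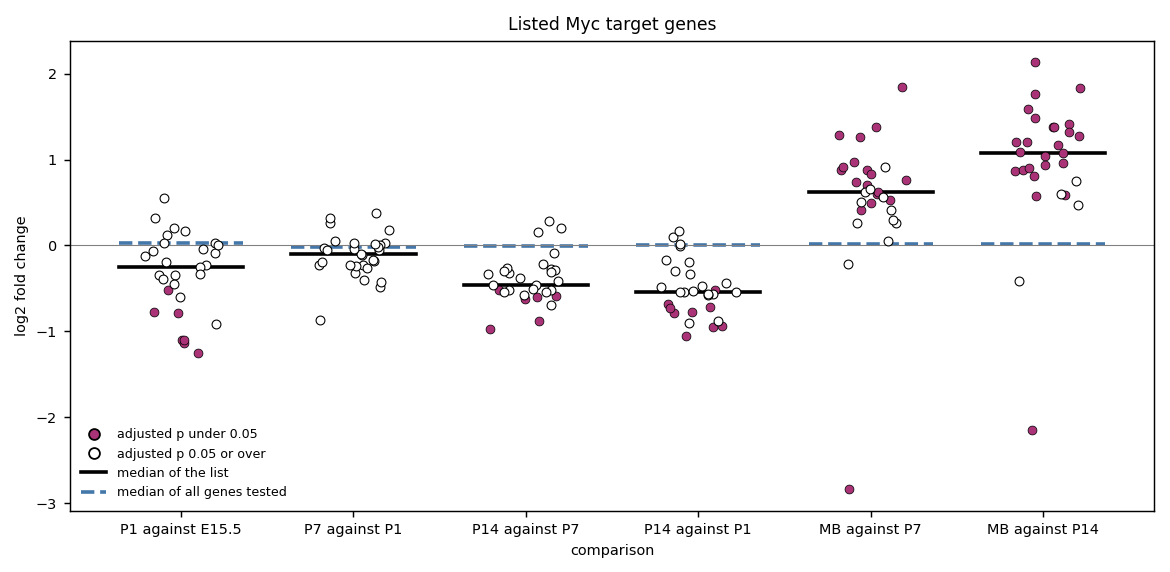
Log2 fold change of the 29 tested genes listed as activated by Myc proteins, in the 6 group comparisons, with filled points past an adjusted p of 0.05, a solid line at the list's median and a dashed line at the median of all genes tested. The list's median lies at 0.63 and 1.07 in MB against P7 and P14 and at -0.54 in P14 against P1, and the lowest filled point in each MB comparison is Tert.

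Between ages, edgeR called 0 genes of this list higher. From E15.5 to P1, 7 of 29 fell and 0 rose, where 20.9% of all genes fell and 25.4% rose, so the share that fell was near the background. The median was -0.25, and P1 against E15.5 replicate 2 alone, within 1 counting set, gave -0.054. Srm, the spermidine synthase gene, Ldha, which makes lactate from pyruvate, and Tert fell (log2 -1.26, -1.13 and -1.1, edgeR adjusted p = 0.00186, 9e-04 and 0.0311). In P14 against P1, 9 of 29 fell and 0 rose, with a median of -0.54 against 0.00524 for all genes, of which 5.31% fell. The nucleolar protein gene Npm1 fell from 97.5 ± 20.3 to 46.9 ± 4.49 CPM (log2 -1.05, SE 0.18, edgeR adjusted p = 0.00387). The ribosome production genes Utp20 and Nop58 fell (log2 -0.95 and -0.94, edgeR adjusted p = 0.0229 and 0.0126). In P14 against P7, 6 fell and 0 rose, against 4.51% and 5.81% of all genes, and in P7 against P1 none of the 29 was called by edgeR, with a median of -0.10.

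The genes whose pattern over the 15 libraries was most like a member's were ranked by Pearson's r of log2 CPM, as a description over libraries that share groups and depth. For Mycn they were Cdc45, a replication helicase factor (r = 0.976), Tfap4, a helix-loop-helix factor (0.975), and Tgif2, a homeobox repressor (0.970). Cdc45 was at 23.6 ± 2.16 CPM at P14 and 101 ± 9.36 in MB. For Mxd3 they were Pimreg, a mitosis-linked gene (0.969), Timm50, a mitochondrial import subunit (0.932), and Hnrnpab, an RNA-binding protein gene (0.929). Pimreg was at 46.9 ± 5.15 CPM at P14 and 90.5 ± 33.8 in MB.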

How the data were processed

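The data are RNA-seq gene counts of 15 libraries. Per the labels' protocols, RNA went through poly(A) selection and TruSeq v2 libraries, which do not mark strand, on a HiSeq instrument. The submitters' processing notes name mm9, Trimmomatic, TopHat, StringTie and HTSeq, without versions or roles. The authors deposited raw counts per gene, per transcript and per start-site model. Lines that name no gene stayed out of library sizes and tests: 14.1% to 29.2% of reads per library were in no feature, 0.52% to 0.75% were ambiguous and 22.9% to 44.6% were not uniquely aligned. Start-site counts were not used, since only 1 model per member could be matched by name and alternative starts could not be assigned.

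Genes were tested with edgeR 4.0.16 (quasi-likelihood, TMM scaling, filterByExpr with a minimum count of 10 and total of 15, all 15 libraries, 10 residual degrees of freedom) on 15259 genes, with Benjamini-Hochberg adjustment over all of them and a threshold of 0.05. Alternatives were DESeq2 1.42.0, other scaling, no filter, a replicate block, the compared groups only, transcript counts, within-set fits and leaving out each library. Others were added after seeing the data: 2 corrections for transcript length and GC content (14494 genes) and leaving out 3 libraries together. The second correction replaced least squares by a robust, centred fit because the first moved the median of all genes, and both are reported. On simulated counts for P14 against P1, 181 of 200 changed genes were recovered with 11 false calls among 14997 genes. The simulation gave every gene the same spread and set no library apart. It therefore checks the fit and does not measure the power reached in these libraries.

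CPM values use TMM-scaled library sizes. Exon lengths are from the transcript models in the files, and sequences from RefSeq (GRCm38.p6) were read for the genes by symbol, never by mm9 coordinates. The Mlx branch was named in full. From the other 2 network lists, the 3 called genes with the largest change in each direction were named for P1 against E15.5, P14 against P1 and MB against P7, and 1 gene that this rule selects is not reported here. For Mycn and Mxd3, the 3 genes with the highest r of log2 CPM were named. The members and lists were chosen with earlier results of these data known. No replicate pair agreed within sampling noise (chi-square per degree of freedom of 17.1 to 255).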

Additional observations from a re-analysis of the deposited data

How the results depend on the processing

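Across the 25 alternatives, the direction and call of Myc, Mycn and Mycl in MB held in every fit, and no count of called members in MB against P14 moved by 1.5 times, with 5 to 7 over single libraries left out (7 with all). In MB against P7 the 4 called members became 8 with the least-squares length and GC correction, and 3 to 5 with single libraries left out. Within the counting set that comparison rests on MB replicate 1 alone, where Mnt was lower than at P7 (-1.26), so no count is given for it. In P1 against E15.5 the 3 became 6 with that correction, 7 without P1 replicate 3, MB replicate 1 and E15.5 replicate 3 together, and 2 to 5 with single libraries left out. In P7 against P1 the 0 became 1 with DESeq2 and with each length and GC correction, 3 without those 3 libraries, and 0 to 1 with single libraries left out. In P14 against P7 the 2 became 4 with the compared groups only, with least squares and without the 3 libraries, and 0 to 3 with single libraries left out. In P14 against P1 the 1 became 3 with DESeq2, 2 with the compared groups only and within the set, 4 with least squares, 3 with the robust correction, 6 without the 3 libraries, and 0 to 4 with single libraries left out. Over the 4 ages the 5 became 8 without the 3 libraries and ranged from 2 to 6. The cause was not tested.

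With the replicate block, 3 members were called in MB against P7, without Mxd1 (log2 0.46, edgeR adjusted p = 0.0534), and 4 over the ages, without Mxi1, and no other call changed. Same-numbered libraries correlated at -0.24 to 0.33 in their deviations. Differently numbered libraries were not compared, so these values cannot say whether the numbers pair libraries. Directions turned in these cases: Mycn in P7 against P1 (-0.43 to 0.013 over single libraries left out), Max in P14 against P1 (0.0046 with the robust correction), and Mxd3 in P1 against E15.5 (0.0044 within the set, 0.11 without the 3 libraries) and in MB against P7 (-0.36 within the set). Mnt turned in P14 against P7 (-0.16 to 0.081 over single libraries), P14 against P1 (-0.024 with least squares, -0.035 robust), MB against P7 (-0.045 with upper-quartile scaling, -0.0024 with the replicate block, -1.26 within the set, and -0.21 to 0.41 over single libraries) and MB against P14 (-0.032 with upper-quartile scaling and -0.14 to 0.48 over single libraries). Mga turned in P7 against P1 (0.074 with least squares, 0.038 robust) and MB against P7 (-0.032 without the 3 libraries and -0.031 to 0.53 over single libraries).

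Upper-quartile scaling moved the median of all genes to 0.17 in P1 against E15.5, -0.12 in P7 against P1 and -0.13 in MB against P14. Least squares moved it to 0.38 in MB against P14, 0.26 in MB against P7, -0.29 in P1 against E15.5 and -0.13 in P14 against P7, so members are to be read relative to these shifts. All genes called higher and lower then numbered 6641 and 3277 (3492 and 4145 as reported) in MB against P14, 5197 and 2749 (2096 and 3161) in MB against P7, 2988 and 5866 (3870 and 3191) in P1 against E15.5, 1115 and 2529 (886 and 688) in P14 against P7, and 1153 and 538 (214 and 266) in P7 against P1, where upper-quartile scaling gave 125 and 397. Depth bears most on Mlxipl, with 8 counts over the 3 MB libraries, and the lowest count of a member was 358.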
